A study of Mus musculus with 47 samples.

Results

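The regions described here are deciles 5, 6 and 7 of a list of CLK:BMAL1 ChIP-seq peaks from mouse liver. They were chosen by their place in the list alone, as the deposited signal sets of these deciles and as the rows that 3 such sets take up after the first 4, which are 966 of its 3217 peaks (30%). Nucleosome signal around them was measured by MNase-seq in livers of adult C57BL/6 mice aged 3 to 6 months, kept in 12 h light and 12 h dark. One group was wild type (24 mice, 4 at each of 6 zeitgeber times, ZT, the hours after lights on) and the other was Bmal1-/- (23 mice, again 4 per time but 3 at ZT22). All livers were crosslinked with formaldehyde, their nuclei were digested with micrococcal nuclease, and DNA of about 150 nt was sequenced. The labels give neither the Bmal1 allele nor the sex of the mice, and each library is taken as 1 mouse.

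CLK (CLOCK) and BMAL1 form the heterodimer at the head of the circadian clock. It binds E-box motifs, activates the Per and Cry repressors that later shut it down, and in mouse liver binds most strongly during the light phase. DNA in a nucleosome is wrapped around histones and resists micrococcal nuclease, so a dip in MNase signal at a binding site marks DNA with less nucleosome protection. Without BMAL1 the heterodimer cannot form.

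Most of the 966 peaks were of a class other than transcription start sites. Introns held 428 of them (44.3%, against 43.9% of the whole list), intergenic DNA beyond 10 kb from a gene held 22.05% (against 22.3%), and transcription start sites (TSS) held 19.2% (against 18.1%). A further 72 were intergenic within 10 kb of a gene (7.45%, against 9.14%) and 68 lay elsewhere in gene bodies (7.04%, against 6.56%). By class these deciles thus resembled the list as a whole. The 3 deciles were also close to each other, with 41.6%, 45.7% and 45.7% intron peaks and 20.2%, 17.4% and 19.9% TSS peaks in deciles 5, 6 and 7.

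ChIP-seq peak width, which the choice of rows did not use, fell along the list. Its median was 319, 300 and 290 bp in deciles 5, 6 and 7, against 399 bp in decile 1 and 339 bp in deciles 2 to 4. The upper quartile of width was 359 bp in deciles 5 to 7 and 309 bp in deciles 8 to 10. The first of these rows was a TSS peak on chromosome 19 from 8955331 to 8955800 (mm9, as are all positions here), and the last was an intergenic peak beyond 10 kb on chromosome 3 from 137275001 to 137275280. The widest, at 579 bp, was an intergenic peak beyond 10 kb on chromosome 5 from 124284831 to 124285410. The narrowest was a TSS peak on chromosome 17 from 3084431 to 3084570. The peaks lay on 20 chromosomes, and 18.9% of them had a 3000 bp window that overlapped that of another listed peak. Genes and sequences at these peaks were not used here, because the reference is of another build than mm9.

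The signal is the authors' scaled coverage, averaged over the peaks of a set at 300 positions 10 bp apart, so single peaks were not analysed. In each library it moved in whole multiples of 1 fragment's worth (100% of values within 0.1 of a step). Those steps fitted the number of peaks that the sets are named for in deciles 5 and 6, but 1 peak fewer in decile 7, or 965 peaks in all. If the sets follow the list, 963 of the peaks they hold are among the rows counted above, and the median width stays 300 bp with 428 intron peaks. Between 6298 and 12843 fragments covered the window middle of the 3 deciles in a library, a counting error of 0.882% to 1.26%, which covers counting error only. Relative depth, with the shallowest library at 1, averaged 1.52 (SD 0.299, n = 24) for wild type and 1.36 (SD 0.229, n = 23) for Bmal1-/-. Wild-type depth was 1.61 ± 0.326 for light and 1.43 ± 0.252 for dark libraries (SD, n = 12 each), and the part of depth in the results was not tested.

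MNase signal dipped at the middle of the peaks and rose on each side in both genotypes. Signal is given in percent of the flank, the mean beyond 1000 bp on both sides. In wild type the mean profile of the 3 deciles reached its lowest value, 62.4%, at -25 bp from the window middle (mean of 24 mice). The trough was 308 bp wide at the level midway between the flank and its lowest value, from -169 to 140 bp, beside a median peak width of 300 bp. Taken by replicate number, its width was 312.6 ± 36.3 bp (SD, n = 4 numbers). In decile 1 it was 316.7 ± 40.6 bp (SD, n = 4 numbers), beside a median peak width of 399 bp, so the 2 widths did not match there. In Bmal1-/- the lowest value was 71.1% at -15 bp and the width 296.5 bp (mean of 23 mice). A shoulder is the highest value between 150 and 400 bp on a side, so the rule always finds one. The shoulders stood at 94.95% near -305 bp and 93.7% near 345 bp in wild type, and at 99.3% near -305 bp and 98.1% near 315 bp in Bmal1-/-. The mean signal from 300 to 400 bp was 93.9% in wild type and 97.2% in Bmal1-/-. From 400 to 600 bp it was 92.7% and 94.1%, so the rise above the signal farther out was small.

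The trough was not symmetric. From -150 bp to the middle the signal was 66.5% ± 0.975 in wild type, and from the middle to 150 bp it was 71.2% ± 0.706 (SD, n = 4 series). In Bmal1-/- the left side had 73.7% ± 2.90 and the right side 78.1% ± 3.15 (SD, n = 4 series). A series is the mice of 1 replicate number over the 6 times, except that Bmal1-/- series 8 has no ZT22 mouse. The mean of series 8 thus covers 5 times, and its dark mean covers ZT14 and ZT18 only. The left side was the lower one in both genotypes, and no source used here says how the windows were oriented. The tilt was largest in decile 7, at 63.5% on the left against 72.2% on the right in wild type, and smaller in decile 5 (67.9% and 70.7%) and decile 6 (68.02% and 70.8%).

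**Figure D1:**
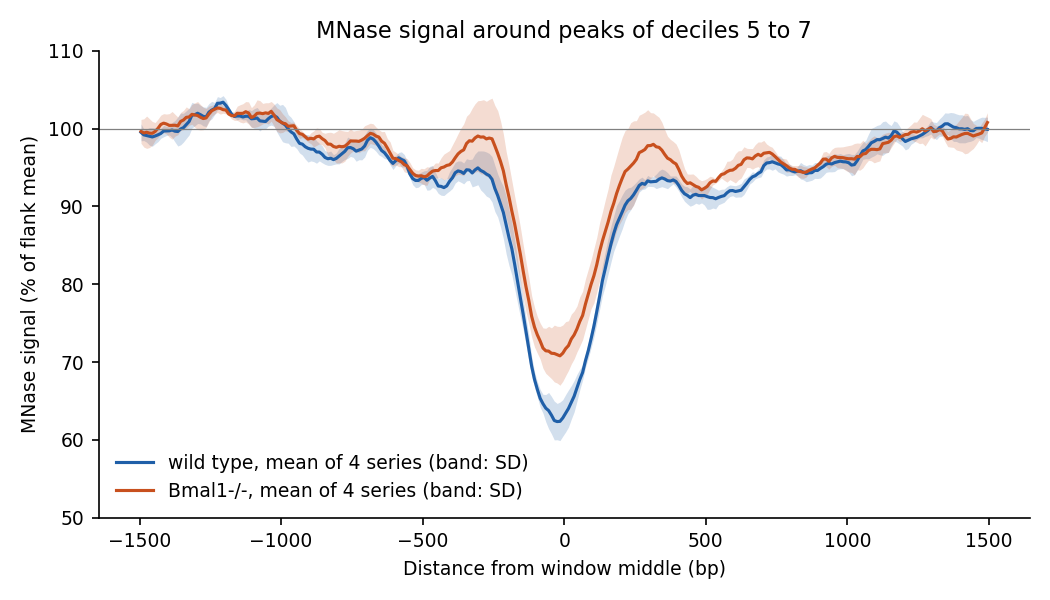
MNase signal in percent of the flank mean (vertical axis) by distance from the window middle in bp (horizontal axis), averaged over deciles 5, 6 and 7, with lines for the means of 4 wild-type and 4 Bmal1-/- series and bands for their SD. The Bmal1-/- line lies above the wild-type line in the trough, where the bands are apart, and also at the shoulders, where the bands overlap.

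The genotypes were compared first, to ask whether the loss of BMAL1 changes nucleosome signal at these peaks. The trough was shallower in Bmal1-/- livers in each of the 3 deciles. It was measured as relative central signal, the average over the central 150 bp on either side of the middle in percent of the flank, and differences are in percentage points. In decile 5 the wild-type series 11, 12, 26 and 27 had 71.1%, 67.5%, 69.2% and 69.3%, and the Bmal1-/- series 5, 8, 9 and 10 had 75.8%, 72.7%, 81.2% and 77.3%. No wild-type series reached the lowest Bmal1-/- series, which was series 8, the one without a ZT22 mouse. The means were 69.3% ± 1.501 and 76.8% ± 3.52 (SD, n = 4 series each), which differed by 7.48 (exact two-sided permutation p = 0.0286, adjusted p = 0.0351 over 27 peak sets).

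Decile 6 had the largest difference of the 3. Its wild-type series had 69.5%, 68.2%, 70.5% and 69.5%, and its Bmal1-/- series 75.8%, 73.6%, 79.6% and 79.9%. The groups did not overlap. The means were 69.4% ± 0.918 and 77.3% ± 3.06 (SD, n = 4 series each), which differed by 7.85 (exact permutation p = 0.0286, adjusted p = 0.0351).

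Decile 7 had the lowest signal in both genotypes. Its wild-type series had 69.4%, 68.5%, 65.9% and 67.4%, and its Bmal1-/- series 74.7%, 69.99%, 76.7% and 73.9%. The groups were apart by less than 1 percentage point between wild-type series 11 and Bmal1-/- series 8. The means were 67.8% ± 1.498 and 73.8% ± 2.804 (SD, n = 4 series each), which differed by 6.02 (exact permutation p = 0.0286, adjusted p = 0.0351). The exact p of 0.0286 is the smallest that 4 against 4 series allow, and 22 of the 27 deposited sets (81.5%), which overlap each other, passed the same test. The 3 deciles are thus not set apart by passing it.

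Averaged over the 3 deciles, the wild-type series had 69.98%, 68.1%, 68.5% and 68.7%. The Bmal1-/- series had 75.5%, 72.1%, 79.1% and 77.04%. The means were 68.8% ± 0.818 and 75.9% ± 2.97 (SD, n = 4 series each), 7.11 apart. Bmal1-/- series were thus spread more widely than wild-type series. Without any 1 wild-type series, exact permutation p was 0.0571 in all 3 deciles (adjusted p 0.0671 to 0.0701), with differences of 6.87 to 8.099 in decile 5, 7.46 to 8.21 in decile 6 and 5.40 to 6.55 in decile 7. The remaining series still did not overlap. Without any 1 Bmal1-/- series, all 3 deciles still passed (exact permutation p = 0.0286). On the authors' scale, with no division by the flank, the Bmal1-/- centre was higher by 0.370, 0.381 and 0.313 signal units in deciles 5, 6 and 7, none of which passed (exact permutation p = 0.143, 0.0857 and 0.143). Bmal1-/- minus wild type in the flank was -0.190, -0.205 and -0.136 units on that scale, which did not pass either (exact permutation p = 0.371, 0.343 and 0.400). Both the mean of the centre and that of the flank thus enter the difference in relative signal.

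Much of the difference lay in the trough. Over the 3 deciles, Bmal1-/- was higher by 8.19 percentage points within 50 bp of the middle, by 7.28 from 50 to 100 bp and by 5.86 from 100 to 150 bp, and in these 3 bands no wild-type series overlapped a Bmal1-/- series. It was higher by 4.69 from 150 to 200 bp, 4.62 from 200 to 300 bp and 3.30 from 300 to 400 bp, where the series overlapped. Beyond that the difference was 1.37 from 400 to 600 bp and 1.12 from 600 to 1000 bp. The bands are a description with no test.

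Position by position, limma on log2((signal + 0.1)/(flank + 0.1)) of the 8 series means called 30 bp of the 9000 bp of the 3 deciles at adjusted p under 0.05 (0.333%). All of it was in decile 5, from 5 to 25 bp right of the middle, and higher in Bmal1-/- by up to 0.21 on the log2 scale. Over all 27 sets, 3.68% of positions were called higher. At an unadjusted p under 0.05, 1610 bp of the 3 deciles differed (17.9%), against 13.2% of all positions. Without Bmal1-/- series 8, the called width was 640 bp, and without any other series it was 0 bp.

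The genotypes were then compared at each time of day. Averaged over the 3 deciles, the Bmal1-/- value exceeded the wild-type value most at ZT02, by 10.7 percentage points. The excess was 9.19 at ZT06, 7.20 at ZT10, 8.05 at ZT14, 0.564 at ZT18 and 8.703 at ZT22. At ZT10 the wild-type mice 11, 12, 26 and 27 had 64.8%, 65.5%, 65.6% and 63.2%, and the Bmal1-/- mice 5, 8, 9 and 10 had 71.3%, 73.004%, 72.5% and 71.1%. The groups did not overlap, and the Bmal1-/- mice were closer together than at any of the other times. At ZT18 the wild-type mice had 73.9%, 73.9%, 72.7% and 73.07%, and the Bmal1-/- mice 73.5%, 66.5%, 76.7% and 79.2%. The wild-type mice at ZT18 thus lay among the Bmal1-/- mice. At ZT22 the Bmal1-/- mice 5, 9 and 10 had 89.4%, 76.9% and 71.1%, so mouse 5 stood far above the others there. Without mouse 5 the excess at ZT22 was 3.56.

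None of these differences passed adjustment over 27 sets and 6 times (0 tests, 0%; 73 tests or 45.1% at an unadjusted exact permutation p under 0.05). An exact permutation p of 0.0286 is the smallest that 4 mice against 4, or 4 against 3, allow. However large a difference is, its adjusted p then depends on how many of the other tests reach that smallest p. The lack of a pass is thus no evidence against a difference at single times. In decile 5 the unadjusted exact permutation p was 0.0286 at ZT02 (13.9 percentage points) and at ZT10 (7.97), with adjusted p = 0.0634 for both. In decile 6 the exact permutation p was 0.0286 at ZT02 (11.9), ZT10 (6.07) and ZT14 (8.61), again with adjusted p = 0.0634. In decile 7 the exact permutation p was 0.0286 at ZT06 (8.22), ZT10 (7.60) and ZT14 (7.75), likewise with adjusted p = 0.0634. Of the 6 times, ZT10 alone had the genotypes apart in all 3 deciles. An unadjusted exact permutation p under 0.05 was reached by 63% of the 27 sets at ZT02, 74.1% at ZT06 and at ZT10, 40.7% at ZT14 and 11.1% at ZT22.

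At ZT18 the genotype difference was -1.78 in decile 5, 4.69 in decile 6 and -1.20 in decile 7 (exact permutation p = 0.686, 0.257 and 0.743). Without Bmal1-/- mouse 8 it was 1.19, 6.98 and 1.05 (exact permutation p = 0.657, 0.0286 and 0.543), so the sign in deciles 5 and 7 and the p of decile 6 turned on 1 mouse. The average over the 3 deciles at ZT18 became 3.06 without mouse 8, -0.354 without mouse 9 and -1.18 without mouse 10. Of the 27 sets, 2 (7.41%) had an unadjusted p under 0.05 at ZT18. The wild-type signal in the 3 deciles was at its highest mean at that time, 73.4% ± 0.569 (SD, n = 4 mice), and the Bmal1-/- mean was 73.95% ± 5.52 (SD, n = 4 mice). Whether the genotype difference itself changed over the 6 times was not tested.

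**Figure D2:**
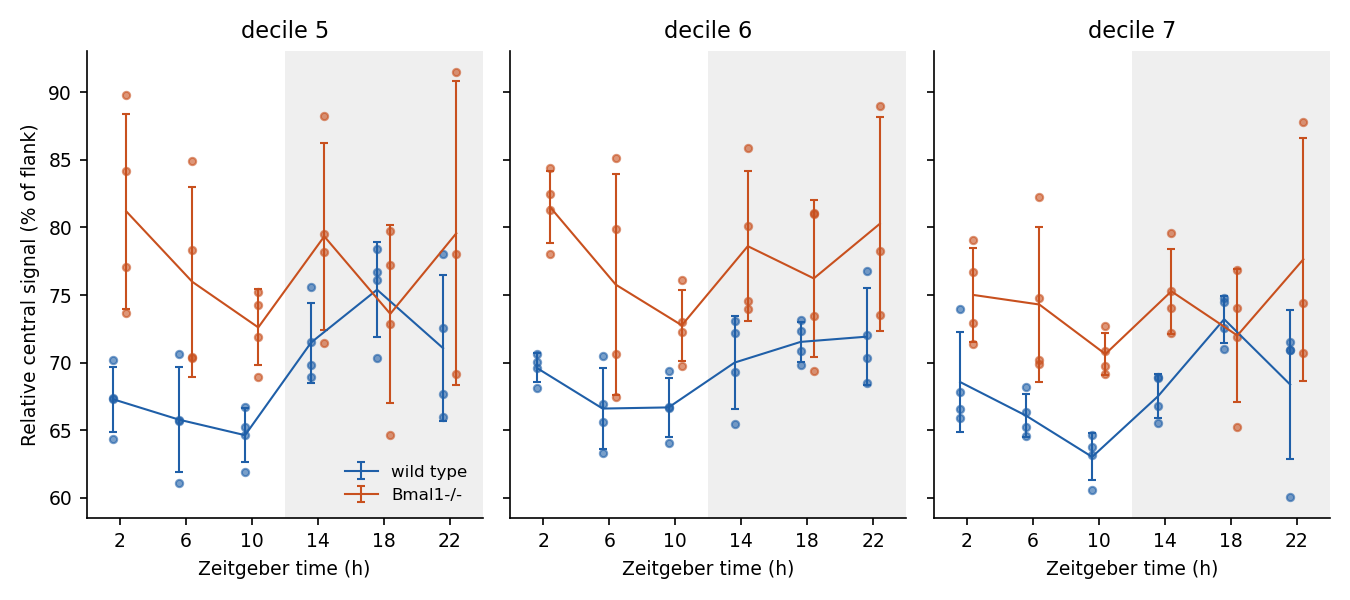
Relative central signal in percent of the flank (vertical axis) by zeitgeber time in hours (horizontal axis) in deciles 5, 6 and 7, with 1 point per mouse, lines through the group means, bars for the SD and grey for the dark phase. Bmal1-/- points lie above the wild-type points in every panel at ZT10, and the 2 genotypes overlap in every panel at ZT18 and ZT22.

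The next question was whether the trough changes between light (ZT02, ZT06 and ZT10) and dark (ZT14, ZT18 and ZT22). In wild type it was deeper in the light in all 3 deciles. In decile 5 the light samples had 65.9% ± 2.85 (lowest 61.1%, median 65.7%, highest 70.6%) and the dark samples 72.7% ± 4.23 (lowest 66.02%, median 72.1%, highest 78.4%; SD, n = 12 mice each). The ranges overlapped between 66.02% and 70.6%. The difference was -6.74 percentage points (permutation p = 0.00022, adjusted p = 0.000926 over 27 sets), and each of the 4 series was lower in the light.

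In decile 6 the light and dark values were 67.6% ± 2.48 and 71.2% ± 2.83 (SD, n = 12 mice each), with light minus dark at -3.51 (permutation p = 0.00371, adjusted p = 0.00527). In decile 7 they were 65.9% ± 3.29 and 69.7% ± 4.09 (SD, n = 12 mice each), with light minus dark at -3.81 (permutation p = 0.0204, adjusted p = 0.0240). Each of the 4 wild-type series was lower in the light in both deciles. The smallest of these series differences was -1.87 (series 11, decile 7) and the largest was -5.73 (series 12, decile 7). Of the 27 sets, 24 passed this test (88.9%).

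The light-dark difference was the least firm in decile 7. It was -3.17 without series 12 (permutation p = 0.119) and -3.88 without series 27 (permutation p = 0.0679). With the centre widened to 250 bp, deciles 6 and 7 no longer passed (-1.59 and -2.41, permutation p = 0.177 and 0.0609).

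Averaged over the 3 deciles, wild-type light minus dark was -4.70, and the 4 series had -4.92, -4.76, -4.22 and -4.89. These 4 values lay closer together than those of any single decile. The wild-type profile had its lowest value at -25 bp in the light, 59.1%, while in the dark it was 65.4% at -35 bp (mean of 12 mice each). The change was largest at the middle, -5.81 within 50 bp, then -4.92 from 50 to 100 bp and -3.37 from 100 to 150 bp. It was -1.02 from 150 to 200 bp and 0.323 from 200 to 300 bp, so the shoulders were at about the same height in light and dark. The genotype difference, in contrast, was 4.62 at 200 to 300 bp.

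By limma over positions, 90 bp of the 9000 bp had less wild-type signal in the light (1%), all in decile 5, from -35 to 35 bp and at 85 bp, by up to -0.20 on the log2 scale. Over all 27 sets, 3.32% of positions were called lower. At an unadjusted p under 0.05 the width was 740 bp (8.22%, against 10.6% of all positions). The called width was 10 bp without series 12 and 0 bp without series 11, 26 or 27.

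**Figure D3:**
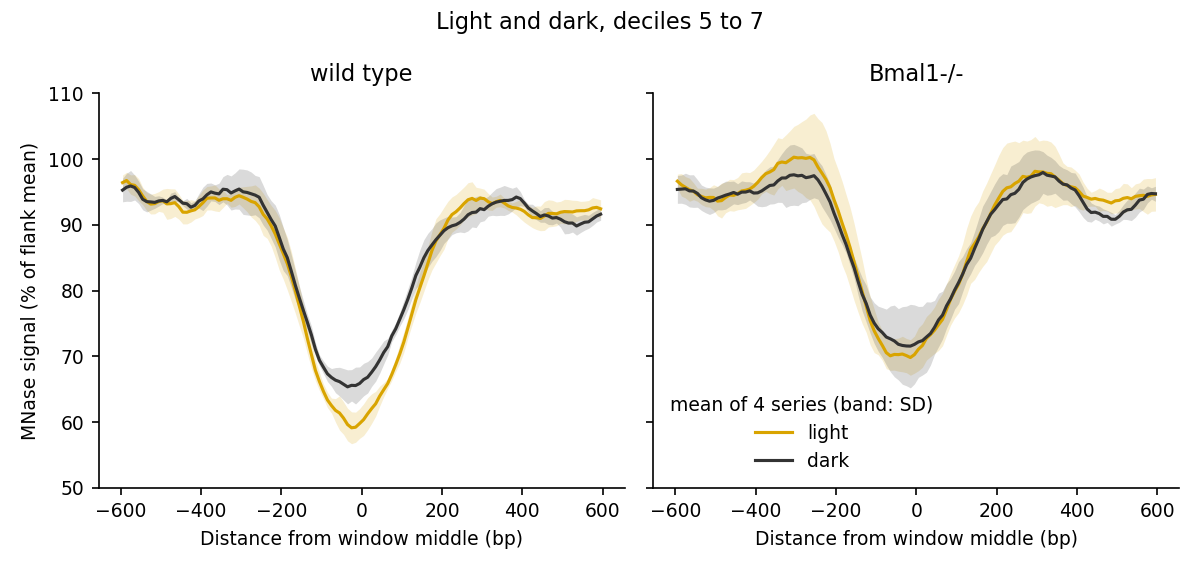
MNase signal in percent of the flank mean (vertical axis) within 600 bp of the window middle (horizontal axis, bp) in the light and the dark, averaged over deciles 5, 6 and 7, for wild type (left) and Bmal1-/- (right), with lines for the means of 4 series and bands for their SD. In wild type the light line is lower than the dark line within 150 bp of the middle, and in Bmal1-/- the bands of light and dark overlap there.

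In Bmal1-/- the light-dark test did not pass in any of these deciles. Light minus dark was -0.725 in decile 5, -1.51 in decile 6 and -1.42 in decile 7 over mice (permutation p = 0.810, 0.544 and 0.509), and 0 of 27 sets passed (0%; also 0 at an unadjusted p under 0.05). The light value in decile 5, for example, was 76.6% ± 6.58 (SD, n = 12 mice) and the dark value 77.3% ± 7.82 (SD, n = 11 mice, lacking mouse 8 at ZT22). Averaged over the 3 deciles, the Bmal1-/- series 5, 8, 9 and 10 had -6.57, 2.13, 0.813 and 0.686. On average, series 5 was thus lower in the light by more than any wild-type series, and the other Bmal1-/- series were slightly higher in the light. The light mice of series 5 had 76.02%, 69.2% and 71.3%. Its dark mice had 73.3%, 73.45% and 89.4%, the last at ZT22, so its value came largely from the ZT22 mouse.

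The difference between genotypes in light minus dark, taken over series, was 6.45 in decile 5, 2.55 in decile 6 and 2.90 in decile 7 (exact permutation p = 0.0571, 0.229 and 0.286; adjusted p = 0.103, 0.281 and 0.321). None of the 3 passed, while 13 of the 27 sets (48.1%) had an unadjusted p under 0.05 and 0 passed adjustment. Without Bmal1-/- series 5 it was 8.18, 4.37 and 5.18 (exact permutation p = 0.0286, adjusted p = 0.0429 each). With all 8 series the light-dark change in deciles 5 to 7 is thus not shown to differ between genotypes. This rests on series 5, in which the ZT22 mouse stood far above the others. The test was not run without that mouse alone.

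A cosine of 24 h period placed the wild-type minimum in the light phase in each decile. Its amplitude was 5.02 ± 1.01 percentage points in decile 5, and its minimum fell at ZT 6.49 ± 0.769 h (SE, n = 24 mice; permutation p = 0.00035, adjusted p = 0.00063). In decile 6 it was 2.93 ± 0.709 and fell lowest at ZT 7.90 ± 0.924 h (permutation p = 0.00165, adjusted p = 0.00223), and in decile 7 it was 3.60 ± 0.965 and fell lowest at ZT 8.05 ± 1.02 h (permutation p = 0.00537, adjusted p = 0.00659). The times of the minima were not tested against each other. Of all sets, 26 of 27 (96.3%) passed the test of the amplitude. Decile 7 did not pass without series 12 (3.27, adjusted p = 0.0756, permutation) or without series 27 (3.66, adjusted p = 0.0506, permutation), nor did decile 6 with the centre widened to 250 bp (1.77, permutation p = 0.0925).

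In Bmal1-/- the amplitudes were 2.52 ± 2.14, 3.17 ± 1.72 and 1.85 ± 1.48 in deciles 5, 6 and 7 (SE, n = 23 mice; permutation p = 0.508, 0.207 and 0.480). Of the 27 sets, 0 passed this test too, at an adjusted or an unadjusted p under 0.05. By limma, 0 bp of the 9000 bp were called between light and dark in Bmal1-/- (0% of all positions), with 190 bp at an unadjusted p under 0.05 (2.11%, against 3.31% of all positions). The errors of these amplitudes were wider than the wild-type ones, and the 24 h amplitude was not tested between genotypes.

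Averaged over the 3 deciles, relative central signal was lower than the averages of deciles 2 to 4 and of deciles 8 to 10. Averaged over the 8 series, it was lower by -2.69 percentage points than that of deciles 2 to 4 and by -2.09 than that of deciles 8 to 10 (exact sign-flip permutation p = 0.00781 and adjusted p = 0.0117 for both, the same sign in 8 of 8 series). The gap to deciles 2 to 4 was -1.27 ± 0.888 in the wild-type series and -4.12 ± 1.31 in the Bmal1-/- series, and that to deciles 8 to 10 was -1.904 ± 1.696 and -2.27 ± 1.47 (SD, n = 4 each). Against decile 1 the genotypes went opposite ways, with 3.28 ± 0.896 in wild type (higher in 4 of 4 series) and -1.27 ± 2.48 in Bmal1-/- (lower in 3 of 4 series; SD, n = 4 each). Their average over the 8 series, 1.005 (exact permutation p = 0.359), holds for neither. The lowest point of the wild-type profile was no lower than in deciles 8 to 10, at 62.4% against 62.2%, while the trough of the mean profile was wider, at 308 against 268.6 bp. By series these widths were 312.6 ± 36.3 and 274.2 ± 41.2 bp (SD, n = 4 each). Their ranges overlapped, and the widths were not tested. With the centre narrowed to 50 bp, neither of the lower values passed (-2.38 and -0.367, adjusted exact permutation p = 0.141 and 0.531), nor did they with division by the window median (-1.43 and -1.04, adjusted exact permutation p = 0.109 for both). On the authors' scale they were -0.118 and -0.0741 signal units (adjusted exact permutation p = 0.0820 for both). By single decile, the signal in deciles 5, 6 and 7 was 69.3%, 69.4% and 67.8% in wild type. In Bmal1-/- it was 76.8%, 77.3% and 73.8% (means of 4 series), so decile 7 was the lowest of the 3. Decile 9 was lower than decile 5 in wild-type series 11 and 12 and Bmal1-/- series 5, 8 and 10, and higher in the others. Single deciles were not tested against each other.

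The genotype difference was smaller than that of decile 1 by -4.55 percentage points and than that of deciles 2 to 4 by -2.85 (exact permutation p = 0.0571 and 0.0286, adjusted p = 0.0857 for both), which did not pass. Both passed without Bmal1-/- series 8 (-5.73 and -3.40, adjusted exact permutation p = 0.0429 for both). Both also passed with the centre within 50 bp (-5.49 and -3.85) or the flank beyond 750 bp (-4.66 and -3.05), again at adjusted exact permutation p = 0.0429. Against deciles 8 to 10 the genotype difference was -0.363 apart (exact permutation p = 0.714).

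Singly, decile 5 had a wild-type light minus dark of -6.74, against -6.27, -5.20 and -6.45 in deciles 2, 3 and 4. Deciles 6 and 7 had -3.51 and -3.81. Averaged over deciles 5 to 7, the wild-type light-dark change lay between those of decile 1 and deciles 8 to 10. It was weaker than in decile 1 by 5.72 percentage points (permutation p = 0.00071, adjusted p = 0.00213) and stronger than in deciles 8 to 10, by -3.37 in the value of light minus dark (permutation p = 0.0146, adjusted p = 0.0218). From deciles 2 to 4 it differed by 1.30 (permutation p = 0.211). The contrast with deciles 8 to 10 was -2.18 without series 11 and -2.94 without series 12 (adjusted permutation p = 0.169 and 0.119), and -1.93 with the centre within 250 bp (adjusted permutation p = 0.122).

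**Figure D4:**
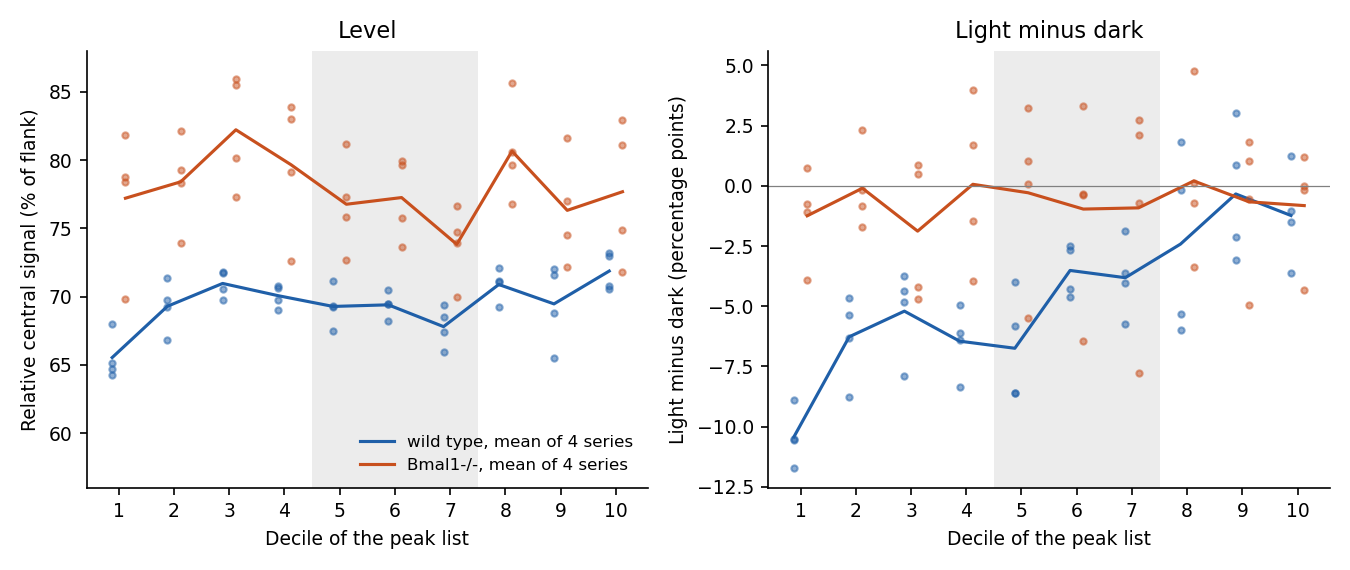
Relative central signal in percent of the flank (left) and its light minus dark value in percentage points (right) for the 10 deciles of the peak list (horizontal axis), with 1 point per series, lines through the means of 4 series of each genotype, and grey behind deciles 5 to 7. In the grey area the Bmal1-/- series lie above the wild-type series at left, and all wild-type series lie below 0 at right.

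The level was also set beside what the genomic classes of the peaks would give. Weighting the deposited profiles of the genomic classes by the classes of the 966 peaks gave 69.3% for wild type, where 68.8% was observed, and 77.8% for Bmal1-/-, where 75.9% was observed. Observed minus weighted values were -0.485 ± 0.487 percentage points for wild-type series and -1.87 ± 0.917 for Bmal1-/- series (SD, n = 4 each), below 0 in all 8. The gap was widest in decile 7, at -1.41 ± 1.77 for wild-type and -3.88 ± 1.67 for Bmal1-/- series (SD, n = 4 each), while decile 5 differed by 0.0772 ± 0.746 and -0.839 ± 0.868 (SD, n = 4 series). This is a description with no test, and the class profiles include these same peaks.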

How the data were processed

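Each library was mouse liver chromatin digested with micrococcal nuclease. Titles with BM were read as the Bmal1-/- mice that the series' design names. CASAVA 1.7, Bowtie and the mm9 build are named, per the submitters' processing notes; no source used here gives the fragment handling, the scaling or the ranking of the peak list. The deposited signal is coverage that the authors scaled and averaged over the peaks of 27 sets, with other deposited columns giving peak and window positions in bp. The 3 deciles were used singly and as their plain mean per library, which got no p of its own. From the signal, relative central signal was computed with Python 3.11.15, numpy 2.4.6 and scipy 1.17.1 and tested by exact permutation of series or by 100000 permutations of mice, which can give no p below 1e-05, with Benjamini-Hochberg adjustment over 27 sets, 3 groups of deciles, or sets and times. Positions were fitted with limma 3.58.1 in R 4.3.3 (pseudocount 0.1, trend) over all 8100 positions, since no value per peak is held. The sets overlap and neighbouring positions share fragments, so calls are widths. Both tools were tested on simulated data. The 47 libraries held no identical pair. The p-values rest on how far mice, or series, of a group differ, and the labels do not say what a replicate number shares. A series, the mice of 1 replicate number averaged over times, was the unit of the genotype tests, those of light minus dark included, which thus group mice by number. The tests over mice used no block by number. Of 115 pairs of libraries with the same number, 52 had a correlation of deviations over 0.1, and the lowest was -0.354. The mean correlation within a number ran from 8.49e-05 (series 10) to 0.181 (series 9), both Bmal1-/-. Pairs of different numbers were not counted, so these values are no ground for leaving out the block. Peaks named by position are the first, last, widest and narrowest row. The members and tests were chosen with earlier results of these data known. Alternatives were other centres, flanks and scalings, other limma settings, the replicate block and leaving out each series.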

Additional observations from a re-analysis of the deposited data

Results flagged for a closer look

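Relative central signal of the 3 deciles and of their plain mean was searched for a value set well apart from its group. The 52 groups were 4 mice of 1 genotype and time, or the 4 series of a genotype, and 1 such value was found. By chance about 5% of groups would show this. The Bmal1-/- mice at ZT22 were only 3 and were not searched, so mouse 5 there (89.4% over the 3 deciles) was not assessed. In decile 7 at ZT22, wild-type mouse 26 had a relative central signal of 60.1%, the lowest of all wild-type mice in that decile, while the nearest mouse of its group had 70.9% and the highest 71.5%. In deciles 5 and 6 the same mouse had 67.7% and 72.1%, inside the range of its group. Without series 26, light minus dark in decile 7 was -3.75 percentage points (permutation p = 0.0212, adjusted p = 0.0335), beside -3.81 with it, and the 24 h amplitude was 4.05 (adjusted permutation p = 0.000765), beside 3.60.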

How the results depend on the processing

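The genotype difference passed in the 3 deciles under every other centre, flank and scaling tried except in decile 7 with the centre within 50 bp (6.85) and, on the authors' scale, in all 3 (0.370, 0.381 and 0.313 signal units). Leaving out 1 series gave 6.01 to 8.83, 6.95 to 9.05 and 5.08 to 7.30 in deciles 5, 6 and 7, and 3 wild-type series against 4 did not pass. The number of times at which the genotypes differed at an unadjusted p under 0.05, which was 2 in decile 5, 3 in decile 6 and 3 in decile 7, became 1 in deciles 6 and 7 within 50 bp, 1 and 0 there on the authors' scale, and 1 in decile 5 with the window median; it was 0 to 3, 1 to 4 and 1 to 3 with 1 series left out. Within 250 bp, wild-type light minus dark was -1.59 in decile 6 and -2.41 in decile 7 and the amplitude in decile 6 was 1.77. Leaving out 1 wild-type series gave -4.46 to -3.17 for light minus dark and 3.27 to 4.05 for the amplitude in decile 7, neither of which passed without series 12 or 27. In Bmal1-/-, light minus dark turned to 0.0343 within 250 bp in decile 6, and without series 5 to 0.912, 0.164 and 0.864 in deciles 5, 6 and 7 (lowest without another series -2.11, -2.39 and -2.77). Its difference between genotypes was 5.28 to 8.18, 1.12 to 4.37 and 1.69 to 5.18 with 1 series left out.

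The comparisons with other deciles under these settings, and a centre moved 25 bp to the left, were added after the data were seen. The level against deciles 2 to 4 did not pass within 50 bp (-2.38), on the authors' scale (-0.118) or with the window median (-1.43), nor against deciles 8 to 10 within 50 bp (-0.367), with the flank beyond 750 bp (-1.41), on the authors' scale (-0.0741) or with the window median (-1.04). The genotype difference against decile 1 and deciles 2 to 4 passed within 50 bp (-5.49 and -3.85), with the flank beyond 750 bp (-4.66 and -3.05), on the authors' scale (-0.381 and -0.209) and with the window median (-5.18 and -3.40), and with 1 series left out it was -5.73 to -3.88 and -3.40 to -2.40. Against deciles 8 to 10 it turned to 0.103 within 250 bp, to 0.0852, 0.165 and 0.292 without series 11, 12 and 9, and was -0.890 to 0.292 over all series left out. Wild-type light minus dark against deciles 8 to 10 was -1.93 within 250 bp and -4.27 to -2.18 with 1 series left out.

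For limma, the width called for genotype was 80 bp with a pseudocount of 1, 270 bp with one of 5.51, 490 bp without a trend, 1760 bp with the 47 libraries as the unit, and 0 bp on the authors' scale, over the 10 deciles alone, or once the 25% of positions with the least signal were dropped, which takes out the trough by construction. The width for wild-type light minus dark was 50 bp with a pseudocount of 5.51, 40 bp over the 10 deciles alone, and 0 bp on the authors' scale or without those positions. Leaving out 1 series gave 0 to 640 bp and 0 to 10 bp. With the replicate block, light minus dark in wild type was -6.74, -3.51 and -3.81 (adjusted permutation p = 0.000916, 0.0081 and 0.0244). The width that limma called in wild type was 120 bp with the block, beside 90 bp without it. In the tests of relative central signal, the block changed no pass or fail in these deciles in either genotype. Of the 47 libraries, 26 correlated best with their own number among the 4 of their genotype. Whether mice of 1 number are alike was not tested. The causes of these changes were not tested.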
